A study of Rattus norvegicus with 4 samples.

Results

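Bone morphogenetic proteins (BMPs) are secreted growth factors of the TGF-beta superfamily. The set described here comprised the ligand genes Bmp2, Bmp3, Bmp4 and Bmp6, the secreted antagonist gene Nog (noggin) and the receptor genes Bmpr1a and Bmpr2. Members were all probe sets whose platform annotation named a single one of these 7 genes, and each probe set was read separately across the 4 arrays. The rule found 10 probe sets of 6 genes, out of 7006 probe sets of 4736 genes with 1 gene symbol and 8799 probe sets in all. Bmp2, Bmp3, Bmp6 and Nog had 2 probe sets each, Bmp4 and Bmpr1a had 1 each, and for Bmpr2 no single-symbol probe set was found, so it is not analysed here.

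The series followed whole rat testis on an Affymetrix array, which reads each transcript by a probe set of short oligonucleotides. Rats were placed on a diet without vitamin A at 20 days of age and kept on it for 9 weeks. The 4 samples were deficient testis without treatment (VAD, 0 h) and deficient testis at 4, 8 and 24 h after retinol, the alcohol form of the vitamin, so every sample shared the deficient diet. There was 1 deposited sample, called an array here, per group, and testis supplied with vitamin A throughout was not analysed here. The sources used here do not state the strain, the retinol dose and route, or how many animals stood behind an array.

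A BMP ligand pairs with itself or with a related ligand and brings together type I receptors, such as the product of Bmpr1a, and type II receptors, such as that of Bmpr2. The receptors phosphorylate Smad1, Smad5 and Smad9, which enter the nucleus with the common partner Smad4 and switch on target genes such as the Id family. Noggin binds BMP ligands outside the cell and keeps them from their receptors. BMP3 is the atypical ligand of the family and mostly opposes the others. In mouse testis, BMP4 has been described as a signal to spermatogonia that favours their differentiation.

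The deposited values were linear ratios for each probe set to a reference that the sources used here do not state. The VAD array lay close to 1, with a median of 0.995 and 59.7% of probe sets within 10% of 1. Changes below are differences between 2 arrays in log2 ratio, and a change was counted when it reached 2-fold in either direction. Since each group is a lone array, groups could not be tested against each other and no value has a replicate check. Ratios carry no level, so it cannot be said which gene was more abundant, and the testis label could not be set against marker levels. Over 1073 genes read by exactly 2 probe sets, the spread attributable to 1 probe set (the SD of the difference between the pair divided by the square root of 2) was 0.39, 0.46 and 0.50 at 4, 8 and 24 h minus VAD. It was 0.31 for 8 h minus 4 h, 0.30 for 24 h minus 8 h and 0.35 for 24 h minus 4 h. This spread leaves out the variation between animals, and some pairs may be designed on the same sequence.

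The genes with a probe set past 2-fold against VAD were Bmp3, Bmp4 and Nog, lower after retinol on that probe set, and Bmp6, higher on it. The second probe set did not reach 2-fold for Nog and Bmp6, and did so only at 4 h for Bmp3. The promoters of these genes are shown because each had such a probe set. Each is the 250 bases before the transcript start that the RefSeq table gives for the gene (build GRCr8, 5′ to 3′ on the gene's own strand, here the minus strand for all of them). Capitals mark CAGAC, the Smad binding element, and GGCGCC, a GC-rich element bound by the BMP Smads, read on both strands. The Bmp4 window is chr15:22101934-22102183, that of Nog chr10:74627502-74627751, that of Bmp3 chr14:11041283-11041532 and that of Bmp6 chr17:26675262-26675511.
Bmp4: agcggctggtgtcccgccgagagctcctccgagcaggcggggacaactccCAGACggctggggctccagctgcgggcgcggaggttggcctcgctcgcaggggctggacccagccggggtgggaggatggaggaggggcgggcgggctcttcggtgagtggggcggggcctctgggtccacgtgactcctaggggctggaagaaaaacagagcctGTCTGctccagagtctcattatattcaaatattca
Nog: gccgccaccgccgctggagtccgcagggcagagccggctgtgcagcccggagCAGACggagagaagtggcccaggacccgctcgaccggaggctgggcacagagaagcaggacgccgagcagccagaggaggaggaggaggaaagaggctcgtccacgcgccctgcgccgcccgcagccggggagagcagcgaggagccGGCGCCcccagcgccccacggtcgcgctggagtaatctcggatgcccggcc
Bmp3: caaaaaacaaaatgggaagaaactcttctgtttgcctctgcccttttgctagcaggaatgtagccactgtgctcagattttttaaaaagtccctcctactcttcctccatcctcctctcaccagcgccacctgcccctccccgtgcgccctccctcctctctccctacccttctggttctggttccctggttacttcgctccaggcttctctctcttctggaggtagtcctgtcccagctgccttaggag
Bmp6: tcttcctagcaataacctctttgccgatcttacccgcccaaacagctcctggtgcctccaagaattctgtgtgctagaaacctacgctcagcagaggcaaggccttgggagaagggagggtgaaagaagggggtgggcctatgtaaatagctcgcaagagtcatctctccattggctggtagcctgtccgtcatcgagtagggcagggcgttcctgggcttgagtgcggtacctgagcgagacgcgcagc

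The Bmp4 window held CAGAC at 200 to 196 bases before the start and its reverse complement at 35 to 31 bases before it. In the Nog window CAGAC lay 198 to 194 bases and GGCGCC 51 to 46 bases before the start, and no marked match overlapped another. Neither motif was present in the Bmp3 and Bmp6 windows. Over 33469 rat promoters of the same length, 42.9% held CAGAC and 8.69% held GGCGCC, so a CAGAC match is common. The hexamers AGGTCA and AGTTCA, which retinoic acid receptors bind in pairs, occurred in 14.1% and 12.2% of promoters on either strand and in none of the 4 windows printed. The Nog and Bmp4 windows were GC-rich, at 74.0% and 66.4% GC, compared with 56.4% for Bmp6 and 53.6% for Bmp3. The median over all promoters of that length was 51.2%, below each of these windows. The windows of Bmp4 and Bmp6 lie inside the genes' annotated spans, whose upstream ends are at 22113145 and 26785558, so they stand before an internal transcript start and not before the outermost one. A match describes the letters only.

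**Figure D1:**
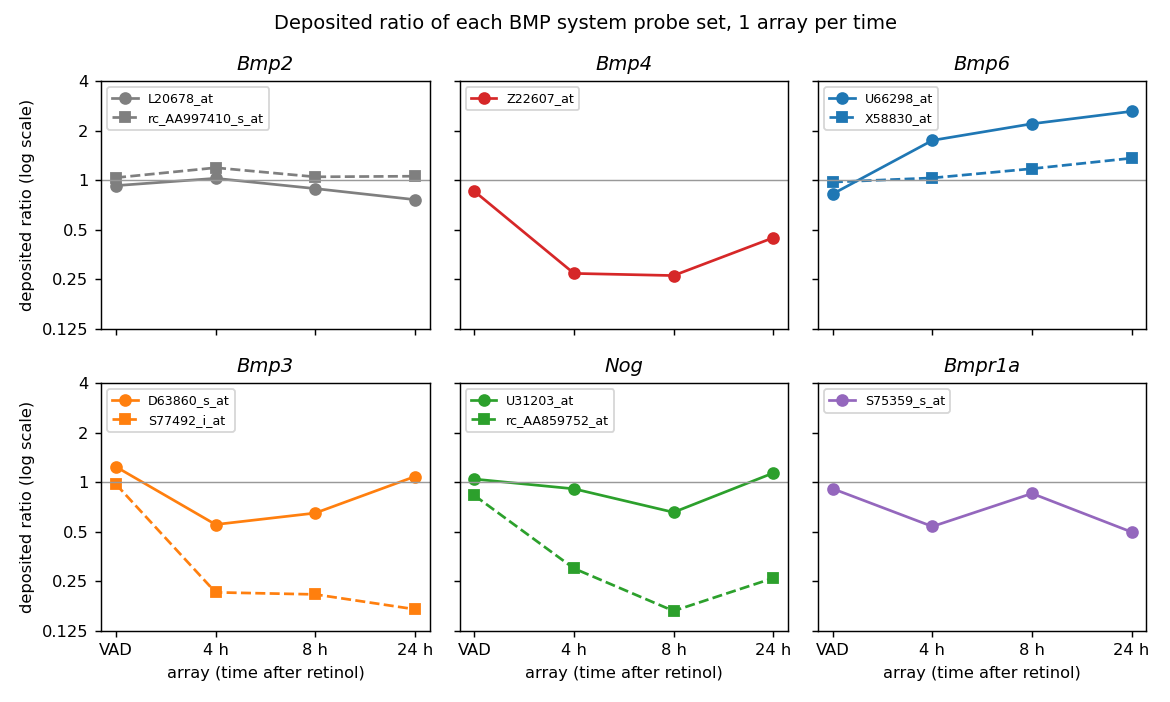
Deposited ratio (vertical, log scale) of each BMP system probe set on the VAD, 4 h, 8 h and 24 h arrays, with 1 point per array and 1 line per probe set. The single Bmp4 probe set and 1 probe set each of Bmp3 and Nog sit below 0.5 on all 3 retinol arrays, and 1 Bmp6 probe set climbs to 2.617 at 24 h.

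Among the ligands, Bmp4 was lower on all retinol arrays. Its probe set Z22607_at had ratios of 0.854 on the VAD array, 0.271 at 4 h, 0.263 at 8 h and 0.446 at 24 h. The low point spanned 4 h and 8 h, and the 24 h array stood between them and VAD. The changes against VAD were -1.66 at 4 h (3.15-fold lower), -1.70 at 8 h (3.25-fold lower) and -0.94 at 24 h (1.91-fold lower, short of 2-fold). Counted from the lowest of the 7006 probe sets, Bmp4 ranked 15 at 4 h, 20 at 8 h and 300 at 24 h. Between retinol arrays, 24 h minus 8 h was 0.76, against a spread of 1 probe set of 0.30. Measured against a ratio of 1 in place of the VAD array, the 24 h value was -1.16 and passed 2-fold, while scaling on the bacterial spike-ins described below took it to -0.22.

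Bmp2, the ligand closest to Bmp4 in sequence, stayed near its VAD ratio on both probe sets. L20678_at had ratios of 0.926, 1.025, 0.888 and 0.761 on the VAD, 4 h, 8 h and 24 h arrays. For rc_AA997410_s_at the same arrays gave 1.035, 1.189, 1.047 and 1.056. No Bmp2 change against VAD was larger than 0.28 in size, which is within the spread of 1 probe set at each time. The pair differed by 0.05 at 4 h and 0.08 at 8 h, smaller gaps than in all but 8.39% and 9.04% of genes with 2 probe sets.

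Bmp6 was past 2-fold higher after retinol on 1 of its 2 probe sets. U66298_at had ratios of 0.825 on the VAD array, 1.744 at 4 h, 2.199 at 8 h and 2.617 at 24 h. X58830_at read 0.973, 1.031, 1.173 and 1.359 on the same arrays. On both probe sets the order was VAD, 4 h, 8 h, 24 h. The changes of U66298_at were 1.08, 1.41 and 1.67 (2.11-, 2.67- and 3.17-fold higher) at 4, 8 and 24 h minus VAD, and those of X58830_at were 0.08, 0.27 and 0.48, within the spread of 1 probe set. U66298_at ranked 120, 103 and 68 from the highest of 7006 at these times. The gap within the pair arose mostly in the step against VAD: between the retinol arrays the pair moved by 0.33 and 0.19 for 8 h minus 4 h and by 0.25 and 0.21 for 24 h minus 8 h. Against a ratio of 1, the 4 h value of U66298_at was 0.80 and missed 2-fold.

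Bmp3 had 2 probe sets that were both past 2-fold lower at 4 h, by unequal amounts, and were further apart later. S77492_i_at had ratios of 0.970 on the VAD array, 0.214 at 4 h, 0.208 at 8 h and 0.169 at 24 h. D63860_s_at read 1.239, 0.553, 0.649 and 1.081 on the same arrays. The first stayed low to 24 h, while the second was back near its VAD ratio by then. For S77492_i_at the changes were -2.18, -2.22 and -2.52 (4.53-, 4.66- and 5.74-fold lower), and it ranked 3, 6 and 7 from the lowest of 7006. D63860_s_at was at -1.16, -0.93 and -0.20, past 2-fold at 4 h alone, and short of it there against a ratio of 1 (-0.85). The pair differed by 1.02, 1.29 and 2.32 at 4, 8 and 24 h, larger gaps than in 91.9%, 94.3% and 99.3% of genes with 2 probe sets. In Affymetrix naming the suffix _i marks an incomplete probe set with fewer probes than usual, and _s one that may match more than 1 sequence.

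The antagonist gene Nog was lower on 1 probe set, with its lowest point at 8 h on both. The probe set rc_AA859752_at had ratios of 0.830 on the VAD array, 0.299 at 4 h, 0.165 at 8 h and 0.261 at 24 h. U31203_at read 1.044, 0.911, 0.656 and 1.136 on these arrays. At 4, 8 and 24 h the changes of rc_AA859752_at against VAD were -1.47, -2.33 and -1.67 (2.78-, 5.03- and 3.18-fold lower), and it ranked 23, 5 and 27 from the lowest. With the arrays scaled on the spike-ins described below only the 8 h value passed 2-fold (-0.91, -1.77 and -0.95). U31203_at was at -0.20, -0.67 and 0.12 and did not reach 2-fold. As with Bmp6, the pair disagreed against VAD, by more than 95.8%, 97.5% and 97.9% of genes with 2 probe sets. The gaps of the Nog pair were smaller between retinol arrays. For 24 h minus 8 h the changes were 0.66 for rc_AA859752_at and 0.79 for U31203_at. For 8 h minus 4 h they were -0.86 and -0.47, and for 24 h minus 4 h -0.20 and 0.32, in opposite directions. The gaps in the latter comparisons were still larger than in 74.6% and 79.6% of genes with 2 probe sets. The name rc_AA859752_at marks a probe set designed on the reverse complement of an expressed sequence tag, and the annotation ties it to Nog without listing an accession.

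Bmpr1a, the type I receptor gene, had the single probe set S75359_s_at. Its ratios were 0.912 on the VAD array, 0.538 at 4 h, 0.854 at 8 h and 0.498 at 24 h. The 4 h and 24 h arrays were low and the 8 h array lay near VAD. The changes of -0.76, -0.09 and -0.87 against VAD were all short of 2-fold, and at 24 h the value was -1.01 against a ratio of 1 and -0.15 with the arrays scaled on the bacterial spike-ins described below. The 4 h value was -0.20 with that scaling. In this bulk tissue, fewer cells of a type and less RNA per cell cannot be told apart.

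Across the set, 5 of 10 probe sets passed 2-fold at 4 h minus VAD, 1 higher and 4 lower, where 3.8% of all probe sets with 1 symbol did so (2.21% higher and 1.58% lower). At 8 h minus VAD it was 1 higher and 3 lower of 10, against a background of 6.57% in either direction (4.04% higher and 2.53% lower). At 24 h minus VAD it was 1 higher and 2 lower, against 8.09% (4.68% higher and 3.41% lower). The median change of the 10 was -0.48, -0.38 and -0.24 at 4, 8 and 24 h, and that of all 7006 probe sets was -0.09, -0.11 and -0.11. Of the 10, 3 were past 2-fold at all 3 times (1 probe set each of Bmp3, Nog and Bmp6), compared with 1.77% of all probe sets. These 3 comparisons share the VAD array. Between retinol arrays none of the 10 reached 2-fold, with backgrounds of 1.93% for 8 h minus 4 h, 1.76% for 24 h minus 8 h and 3% for 24 h minus 4 h.

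**Figure D2:**
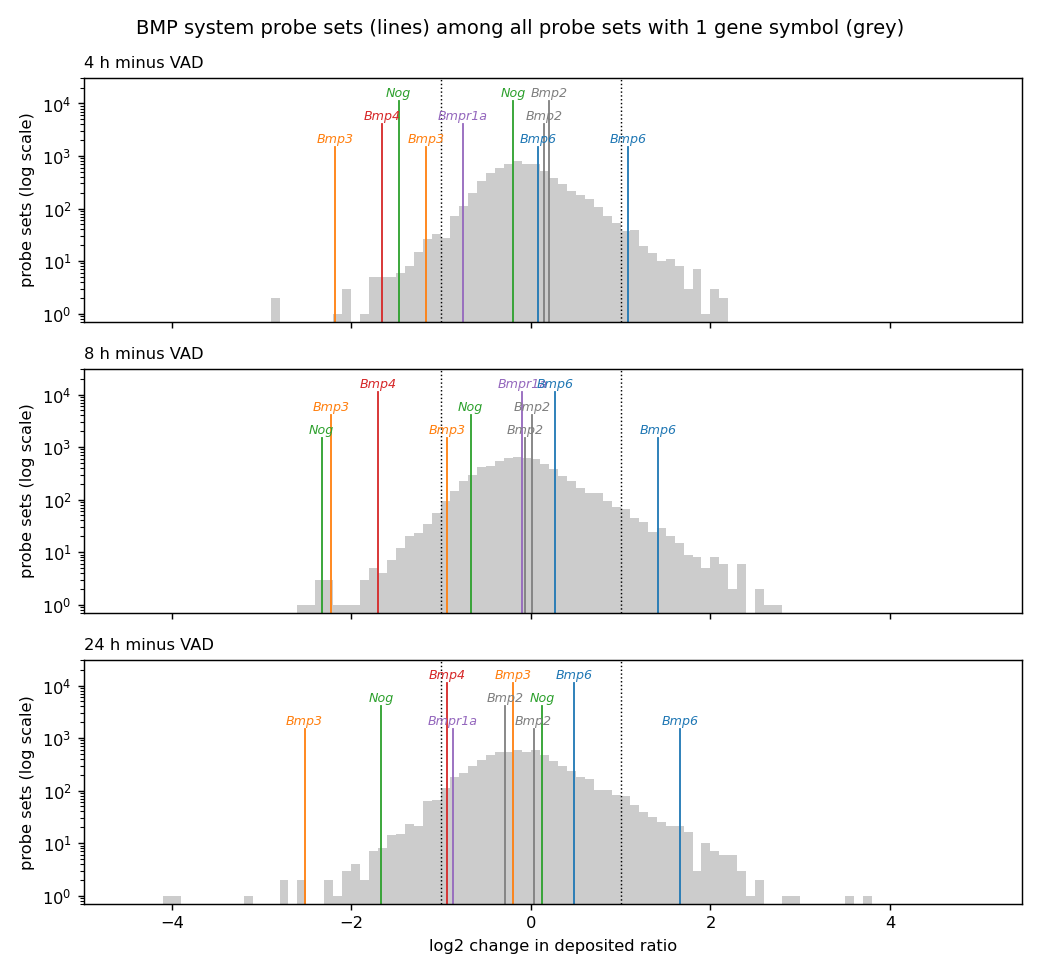
Histogram of the log2 change (horizontal) of all 7006 probe sets with 1 gene symbol at 4, 8 and 24 h minus VAD, number of probe sets on a log scale (vertical), with a coloured line per BMP system probe set and dotted lines at 2-fold. At 4 h the lines of Bmp3, Bmp4 and 1 Nog probe set lie in the lower tail and 1 Bmp6 line in the upper.

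As gene means over probe sets, 2 of the 6 genes were past 2-fold at 4 h, both lower (Bmp3 at -1.67 and Bmp4 at -1.66), where 2.66% of 4736 genes were past it in either direction. At 8 h there were 3, Bmp4 at -1.70, Bmp3 at -1.58 and Nog at -1.50, against 4.71%. Bmp3 (-1.36) and Bmp6 (1.07) were past it at 24 h, against 5.91%. The Nog mean at 8 h and the Bmp3 and Bmp6 means at 24 h each had 1 of their 2 probe sets past 2-fold.

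The calls fell unevenly by the VAD ratio. Of the 10 probe sets, 6 had a VAD ratio within 10% of 1, and 1 of these 6 passed 2-fold at each time, S77492_i_at of Bmp3. The background for such probe sets was 2.18%, 3.5% and 4.47% at 4, 8 and 24 h minus VAD. The other 4 (Z22607_at, U66298_at, rc_AA859752_at and D63860_s_at) gave 4, 3 and 2 calls, and in all probe sets with a VAD ratio outside that window the background was 6.27%, 11.2% and 13.6%. Against a ratio of 1 in place of the VAD array, 3, 4 and 5 of the 10 passed 2-fold. Over all probe sets with 1 symbol the shares on that baseline were 5.02%, 6.87% and 8.54%.

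Scaling bore on the direction of the small changes. The 9 bacterial hybridisation spike-in probe sets were lower on every retinol array, by means of -0.56, -0.56 and -0.72 at 4, 8 and 24 h minus VAD. Scaled on them, 1 member probe set was past 2-fold higher and 2 lower at 4 h, and 1 higher and 3 lower at 8 h. At 24 h it was 2 higher and 1 lower. Of all probe sets with 1 symbol, 3.8%, 6.57% and 8.09% were past 2-fold at 4, 8 and 24 h as deposited. With the spike-ins these shares became 12.6%, 14.5% and 22.4%, so the member counts stand against a larger background, most of all at 24 h. Under that scaling S77492_i_at of Bmp3 stayed past 2-fold at all times (-1.62, -1.66 and -1.80) and Bmp4 at 4 h and 8 h (-1.10 and -1.14). Both Bmp6 probe sets then passed 2-fold at 24 h (2.38 and 1.20), while Bmp2 was at 0.44 and 0.75. Small changes turned sign under it, among them D63860_s_at of Bmp3 at 24 h (0.52), U31203_at of Nog at 4 h (0.36) and Bmpr1a at 8 h (0.46). Over all probe sets, the share of calls that were higher was 58.3%, 61.5% and 57.8% at 4, 8 and 24 h as deposited. It became 71.9%, 75.5% and 72.2% after centring each array on its median and 97.8%, 97.3% and 98.5% with the spike-ins.

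**Figure D3:**
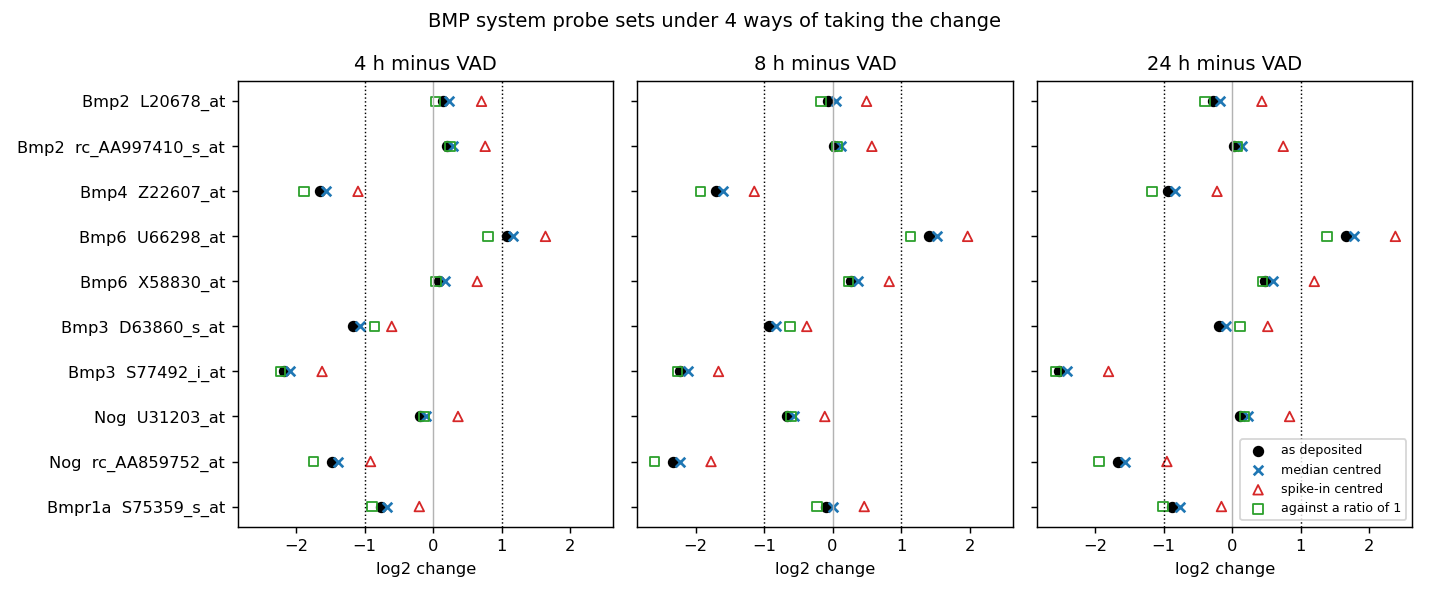
Log2 change (horizontal) of each of the 10 probe sets (rows) at 4, 8 and 24 h minus VAD as deposited, after centring on the array median, after centring on the spike-ins, and against a ratio of 1. The Bmp3 probe set S77492_i_at stays left of the 2-fold line at -1 under all 4 at every time, and Bmp4 does so at 4 h and 8 h.

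Measures that can reflect RNA handling or cell makeup also differed between the arrays. The change at the 5′ end of the control transcripts for actin, GAPDH and hexokinase exceeded that at their 3′ end by means of 0.71, 1.09 and 1.01 at 4, 8 and 24 h minus VAD. Marker genes moved too: the 7 measured of 8 spermatid genes gave medians of 0.75, -0.37 and -0.57 at these times. The medians of the 9 measured of 11 Sertoli genes were 0.43, 0.11 and 0.15, and those of the 6 measured of 8 Leydig genes 0.29, 0.12 and -0.44. Leydig genes went both ways at 24 h, from -1.95 for Cyp11a1 to 1.63 for Nr5a1, and Sertoli genes ran from -0.56 to 1.03. The 5 peritubular myoid genes were at -0.25, -0.39 and -0.43. For spermatogonia 3 of 8 genes were measured (0.46, 0.34 and 0.24), and for spermatocytes 5 of 7 (0.38, -0.20 and -0.26). Macrophage and endothelial lists had 3 of 5 genes measured each, with medians of -0.01, -0.03 and 0.27 and of -0.22, 0.43 and 0.47, the second with Kdr at -1.40, -1.15 and -1.35. What these shifts stem from, and their part in the changes of the BMP genes, was not tested.

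The wider BMP and TGF-beta pathway was read through lists of ligands, receptors, antagonists, transducers and target genes, of which 58 of 108 genes were measured. Of these 58, 0, 2 and 2 were past 2-fold higher and 2, 1 and 2 lower at 4, 8 and 24 h minus VAD. Over all 4736 genes the shares were 1.41% higher and 1.25% lower at 4 h, 2.83% and 1.88% at 8 h, and 3.27% and 2.64% at 24 h. Their medians were -0.07, -0.11 and -0.05, and those of all genes -0.09, -0.12 and -0.12.

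Among the 14 measured other ligands, Gdnf, the Sertoli factor that maintains spermatogonial stem cells, was past 2-fold at 8 h (0.97, 1.02 and 0.19 at 4, 8 and 24 h). Inhbe, an activin subunit gene, was at 0.17, 0.46 and 0.93, and the stress-induced Gdf15 at 0.85, 0.77 and 0.56. Inha, which encodes the inhibin alpha subunit, was at 0.09, -0.11 and -0.50. Bmp7 is named here after its values were seen, because it is the remaining measured ligand gene with a Bmp symbol. It had ratios of 0.996, 0.975, 0.762 and 0.730 on the VAD, 4 h, 8 h and 24 h arrays, with no change past 2-fold.

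None of the 10 other receptor genes passed 2-fold as a gene mean at any time. Acvrl1, a type I receptor gene of endothelium, was at -0.53, -0.49 and -0.41. Acvr1, another type I receptor gene, was at 0.13, 0.25 and 0.47, and the co-receptor gene Tgfbr3 at 0.30, 0.43 and 0.43. The 11 other antagonists and extracellular modulators also held no gene whose mean over probe sets passed 2-fold. Fst, whose product follistatin binds activins and some BMPs, was at -0.70, -0.94 and -0.98 as the mean of 2 probe sets, 1 of them past 2-fold lower at all 3 times (-1.16, -1.42 and -1.28) and the other not (-0.23, -0.46 and -0.69). Bgn, a matrix proteoglycan gene, was at 0.10, 0.46 and 0.87, with 1 of its 2 probe sets past 2-fold higher at 8 h and 24 h (1.35 and 1.73), and the matrix Gla protein gene Mgp at -0.37, -0.57 and -0.49.

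Of the 7 measured transducers, Smad9, which encodes a BMP-activated Smad, was higher on each retinol array. It had ratios of 1.225 on the VAD array, 2.259 at 4 h, 2.580 at 8 h and 3.601 at 24 h. These gave changes of 0.88, 1.07 and 1.56, past 2-fold at 8 h and 24 h, from 1 probe set. Smad1, another BMP-activated Smad gene, was at 0.10, 0.56 and 0.71, with probe sets at 0.23 and 1.20 at 24 h. The common partner Smad4 was at -0.66, -0.43 and -0.29, and Limk1, a kinase gene whose product binds the BMP type II receptor, at -0.26, -0.63 and -0.65, with probe sets at -1.22 and -0.08 at 24 h.

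Among 16 measured target genes, Msx1 and Bglap were past 2-fold lower at 4 h, Bglap at 8 h, and Msx1 and Ibsp at 24 h, while Kit was past it higher at 24 h. Msx1, a homeobox gene induced by BMPs in embryos, had ratios of 0.702, 0.345, 0.481 and 0.300 on the VAD, 4 h, 8 h and 24 h arrays. Its changes against VAD were -1.02, -0.55 and -1.23. The bone matrix gene Bglap (osteocalcin) was at -1.01, -1.08 and -0.90, and Ibsp (bone sialoprotein) at 0.12, -0.38 and -1.27. Kit, the receptor gene of differentiating spermatogonia, was at 0.46, 0.70 and 1.01. Its 24 h mean lay at the threshold, with probe sets at 0.76 and 1.25. Gata3 was at 0.80, 0.27 and 0.39, the Sertoli transcription factor gene Gata4 at 0.43, 0.67 and 0.72 (probe sets at 0.37 and 1.07 at 24 h), and Spp1 (osteopontin) at -0.50, -0.75 and -0.66. The Id genes, named here after their values were seen because they are the usual readout of BMP signalling, did not pass 2-fold as gene means: Id1 was at -0.48, -0.45 and -0.51 as the mean of unequal probe sets (-1.08 and 0.06 at 24 h), Id2 at -0.34, -0.53 and -0.61, and Id3 at -0.08, -0.09 and -0.05. After centring each array on its median, 0, 0 and 2 of the 58 genes were past 2-fold lower at 4, 8 and 24 h, so Msx1 and Bglap missed it at 4 h and Bglap at 8 h. With the arrays scaled on the spike-ins no gene of the 58 was past 2-fold lower, and 7, 9 and 14 were past it higher. That scaling put 12.6%, 14.5% and 22.4% of all probe sets past 2-fold at 4, 8 and 24 h, nearly all of them higher. These counts are therefore not read as a gain of the pathway.

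**Figure D4:**
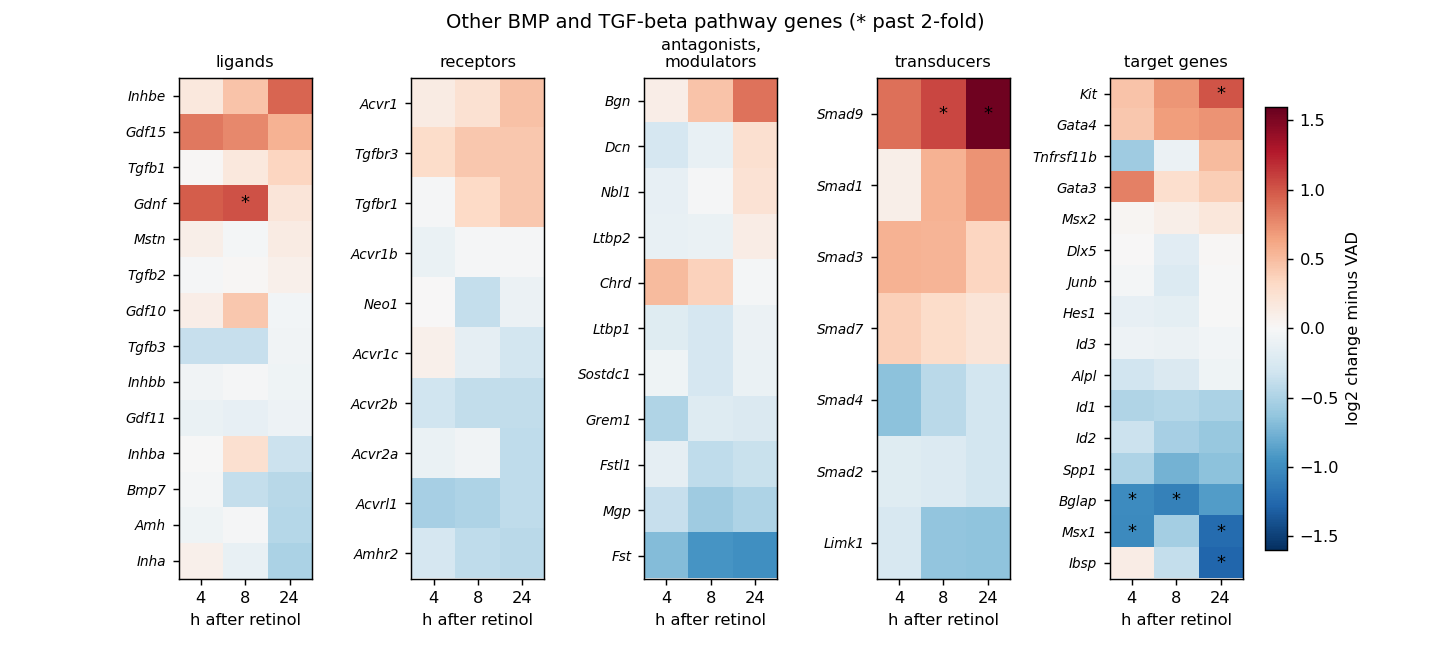
Log2 change minus VAD (colour) of 58 other BMP and TGF-beta pathway genes (rows, mean over probe sets) at 4, 8 and 24 h after retinol (columns), by role, with a star past 2-fold. Smad9 is the darkest cell at 24 h (1.56), and the stars on the lower side belong to Bglap, Msx1 and Ibsp.

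The probe sets whose 3 changes against VAD lay nearest to those of the BMP genes were sought among all probe sets with 1 symbol, by Euclidean distance on the log2 scale. Each profile holds 3 values that share the VAD array. Nearest to Bmp4 were Alcam, a cell adhesion molecule gene (distance 0.13), the estradiol-forming dehydrogenase gene Hsd17b1 (0.32) and the retinoid isomerase gene Rpe65 (0.38). For U66298_at of Bmp6 they were the GTPase gene Rab11b (0.11), Dcaf7 (0.12) and the transcription factor gene Nfia (0.14). S77492_i_at of Bmp3 had more distant neighbours, the proteasome gene Psma5 (0.41), the prolactin gene Prl (0.50) and the epoxide hydrolase gene Ephx2 (0.74). D63860_s_at of Bmp3 was nearest to the sterol demethylase gene Cyp51 (0.17), the adenylate kinase gene Ak4 (0.18) and the channel gene Trpc1 (0.23). For rc_AA859752_at of Nog the nearest were the adhesion receptor gene Adgrl2 (0.29), Ephx2 (0.39) and the phospholipase gene Pld1 (0.56), so Ephx2 was near to both a Nog and a Bmp3 probe set.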

How the data were processed

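Total RNA of whole rat testis was labelled from 10 ug as biotinylated cRNA, per the labels' protocols. Per the submitters' processing notes, the Affymetrix programs GCOS and MAS5 were used, with no version stated. Each deposited value is a linear ratio for a probe set. How the authors turned signal into ratio, what the reference was, and any pooling or scaling are, as far as the sources used here go, not stated. Signal levels and detection calls were not used here, so precision is limited by 1 array per group and dim probe sets cannot be told from bright ones.

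Of 8799 probe sets, 59 were controls, 7006 carried 1 gene symbol, 308 several and 1426 were not listed in the platform annotation. Symbols were checked through Entrez IDs, and the RefSeq gene table of GRCr8 held 6985 of them. Changes were differences of log2 ratios, computed with pandas 2.3.3 under Python 3.11.15 without a pseudocount or filter, counted past 2-fold, and compared with the same count over all probe sets or genes. The call code was checked on simulated data. Alternatives were 2 scalings, other thresholds (1.5- and 3-fold), gene summaries, baselines and backgrounds.

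The named genes are every member probe set, the 3 nearest patterns of each member probe set past 2-fold, and in each pathway list the genes past 2-fold and up to 3 others with the largest change. The members and lists were chosen with earlier results of these data known.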

Additional observations from a re-analysis of the deposited data

How the results depend on the processing

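No paired analysis was possible because each group holds 1 sample, and for the same reason no replicate could be left out. Of the 10 probe sets, 5, 4 and 3 were past 2-fold at 4, 8 and 24 h minus VAD and 0 between retinol arrays, and the following counts differed by more than 1.5 times. At 4 h the count was 3 with spike-in scaling, 2 at a 3-fold threshold and 3 against a ratio of 1. The shares of all probe sets in these settings were 12.6%, 0.628% and 5.02%. Among the 6 genes the count at 4 h was 2 by the mean over probe sets and 3 by the probe set whose mean ratio was highest. At 8 h and 24 h the count by that probe set was 2 and 1. The share of all genes by that probe set was not counted, so these counts have no background and are not read as a result. Because ratios carry no level, this choice takes the probe set that was less low or more high after retinol, so its loss of lower calls follows from the choice. Only 1 probe set was called at each time when the VAD ratio had to lie within 10% of 1, where fewer probe sets are counted. At 24 h, 5 were called at 1.5-fold and 5 against a ratio of 1, where 27.2% and 8.54% of all probe sets were. Between retinol arrays, 2 (8 h minus 4 h), 5 (24 h minus 8 h) and 3 (24 h minus 4 h) were past 1.5-fold. The shares of all probe sets there were 8.56%, 7.59% and 12.9%. With the spike-ins 1 was past 2-fold for 24 h minus 4 h, against 3.5% of all probe sets. For the 58 pathway genes the counts of 2, 3 and 4 became 7, 9 and 14 with the spike-ins. The shares of all probe sets under that scaling were 12.6%, 14.5% and 22.4%. The pathway count was 1 at 4 h after median centring, where 3.97% of all probe sets passed 2-fold. By the probe set with the highest mean it was 5 at 8 h and 7 at 24 h, of which 4 and 5 were higher. The share of all genes under that choice was not counted, so these counts are not read as a result about the pathway. For the other settings the cause was not tested.

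No called change of a member probe set changed sign under either scaling or against a ratio of 1. None could have, so this is no check of the calls. A call is at least 1 in log2 size, and each of these settings shifted the called values by less than that. Over all 6 comparisons, called or not, 120 of 150 member values moved by less than the spread of 1 probe set, and the 30 that moved by more were all under spike-in scaling. Either scaling shifts every probe set of a comparison by the same amount, so for the 2 scalings this tally was fixed by the arrays. It is no check of the members. The spike-in means against VAD (-0.56, -0.56 and -0.72) exceed in size the spread of 1 probe set (0.39, 0.46 and 0.50). By the probe set with the highest mean, 11 of 36 gene means moved by more than that spread. The 36 include the means of Bmp4 and Bmpr1a, which have 1 probe set each and could not move. The planned filter on low signal and the pseudocount were not run, since they need signal levels. Without levels, a change near the background of the array cannot be recognised.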
